A study of Mus musculus with 21 samples.

Results

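Forebrain RNA was compared between PS19 mice homozygous for humanized APOE2 (PS/E2H, n = 4) and PS19 mice homozygous for humanized APOE3 (PS/E3H, n = 4), which are 8 of the 21 mice of the series. All 8 mice carried a P301S mutant human tau transgene, had both copies of mouse Apoe replaced by the human allele, and were killed when paralyzed. Their ages at death are not given in the labels. Paralysis and not age set the time of death, and the study describes unequal times to paralysis for these genotypes, so that APOE genotype and age at death cannot be told apart. A filter on low counts in these 8 mice kept 20324 of 55401 genes for testing. The comparison addresses whether APOE2 and APOE3 leave different transcript profiles in the forebrain once tau disease has reached its end stage. Parental E2H and E3H mice (n = 3 each, 9 to 10 months old), which have the same APOE alleles and no tau transgene, were used to look up the genes found, and PS/E4H mice (n = 4), the PS19 mice homozygous for APOE4, are given as levels. PS19 mice were kept as heterozygotes on a mixed B6/C3H background and the APOE lines on C57BL6, and the mice used here came from repeated crosses of the former to the latter. Nothing in the labels says whether mice of a group were littermates, so the p-values measure the spread between these mice.

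Apolipoprotein E carries cholesterol and other lipids between cells, and in the brain most of it is made by astrocytes and by activated microglia. Its common human isoforms differ by single amino acids that alter binding to receptors and lipids, and they shift the risk of Alzheimer's disease, which APOE4 raises and APOE2 lowers. In the PS19 line the mouse prion protein promoter drives mutant tau in neurons, which leads to phosphorylated tau, gliosis and hindlimb paralysis with age.

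Total counts of the 8 libraries ranged from 59265459 to 72693566, the 10 most abundant genes took 7.38% to 8.56% of a library, and the median Spearman correlation of a mouse with the others was 0.983 to 0.989. On the first principal component (32.4% of the variance) PS/E2H replicates 2 and 4 lay apart at 17.1 and 18.3, where the other 6 mice were at -15.1 to 7.02. Neuronal, astrocytic, microglial and oligodendrocyte markers were present in every mouse, the summed markers of each of 12 cell types or neighbouring tissues overlapped between the groups, and the pituitary hormone genes Prl, Gh and Lhb had 0 counts in all 8 mice. Mouse Apoe, which is replaced in these animals, was at 15, 15.4, 12 and 16.3 CPM (reads relative to library size, scaled with TMM factors) in PS/E2H and 11.1, 14.2, 9.83 and 12.5 CPM in PS/E3H mice. The endogenous tau gene Mapt differed by 0.04 on the log2 scale (standard error 0.069), and transcripts of the human transgenes were not analysed here. Xist, the RNA of the inactive X chromosome, had 18599, 169, 17566 and 12188 counts in PS/E2H mice and 19886 to 26201 in PS/E3H mice. The Y-linked gene Ddx3y had 2517 counts in PS/E2H replicate 2 and 15 or fewer in each of the other 7 mice. The study's methods describe all of these mice as male apart from a single PS/E2H female, so the counts show the reverse of the stated sexes. PS/E2H replicate 2 therefore stands apart from the rest, and the calls are also given without it.

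A gene was called where edgeR's quasi-likelihood test gave a p, adjusted by Benjamini and Hochberg's method, under 0.05 and the fold change reached 2. By this criterion 22 genes were called (0.108% of those tested), 9 higher (0.0443%) and 13 lower (0.064%) in PS/E2H mice. Below, a log2 fold change is that of PS/E2H over PS/E3H, with ± its standard error (n = 4 each), and groups are named separate where every mouse of one lay above every mouse of the other. The calls were concentrated at a few places in the genome. On chromosome 4, 8 genes, among them 4 coding copies of the chemokine CCL21, were lower in PS/E2H mice, 7 genes on chromosome 7 within 20 Mb of Apoe were called in both directions, and 2 genes on chromosome 14 were lower. Single calls fell on chromosomes 6, 13, X and Y, and ENSMUSG00000118458 (log2 fold change -3.51) has no name or position in the annotation used. At an unadjusted p under 0.05 the same test gave 2383 genes (11.7%), and the groups were separate for 1092 genes (5.37%), with PS/E2H higher for 2.6% and lower for 2.78% of all genes. DESeq2 called 62 genes (0.305%), 26 higher and 36 lower, including all 22.

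**Figure D1:**
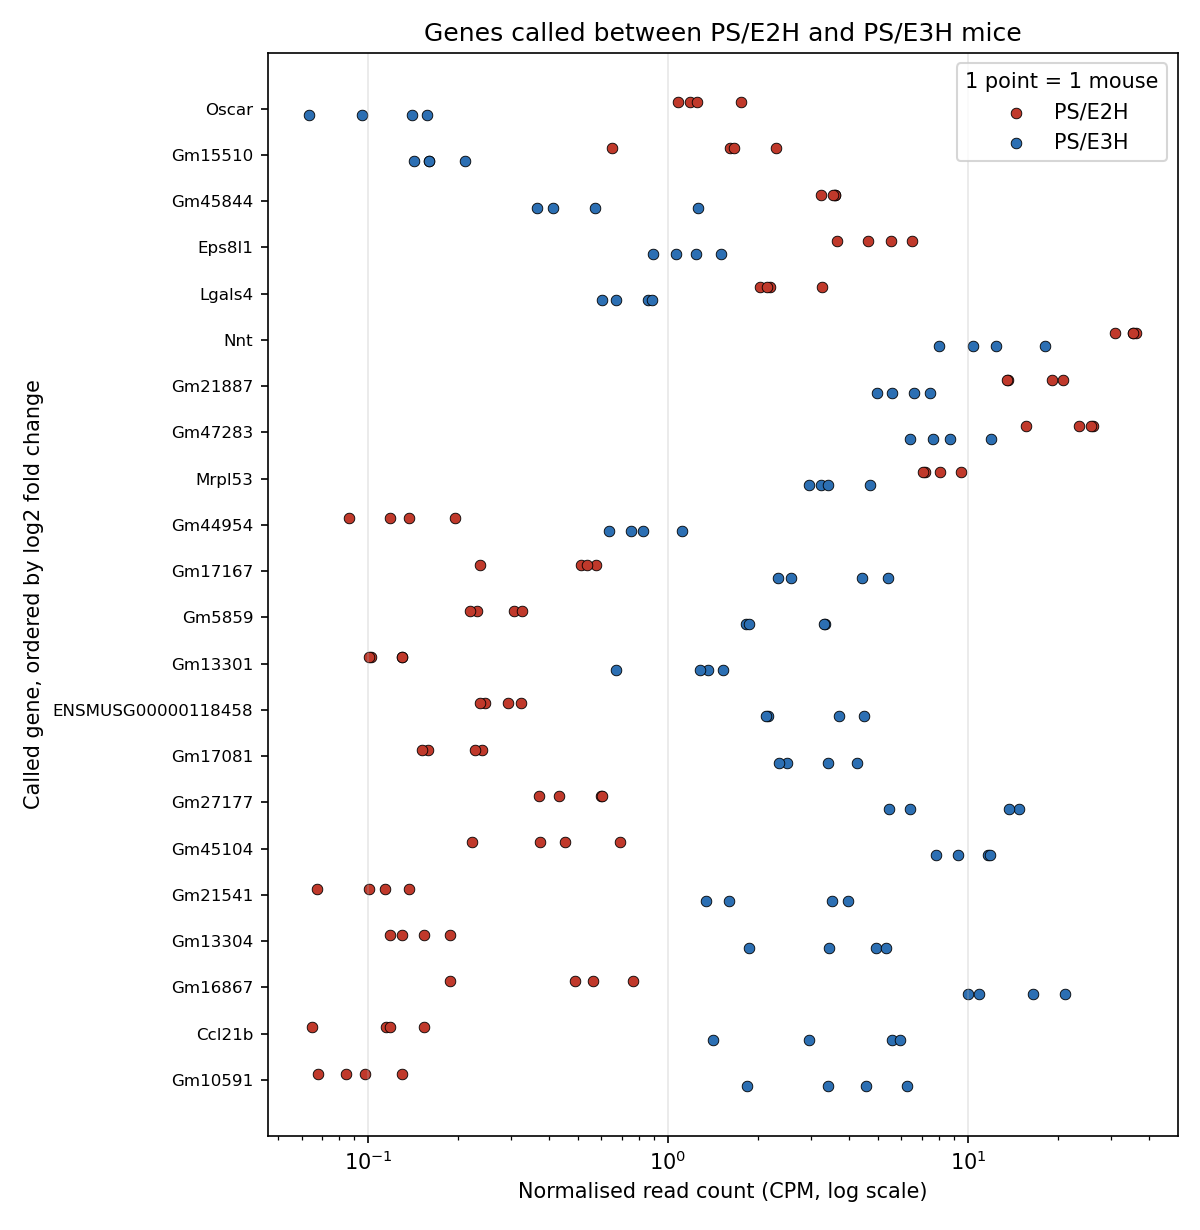
Normalised read count (CPM, log axis) of the 22 called genes, 1 point per mouse, PS/E2H in red and PS/E3H in blue, ordered by log2 fold change. The groups are separate for every gene, with the 9 genes higher in PS/E2H mice at the top and the 13 lower ones below.

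Of the 22 calls, 14 remained in each of the 8 fits that left out 1 mouse, 2 of them higher (Oscar and Eps8l1) and 12 lower in PS/E2H. The total fell to 14 without PS/E2H replicate 1 and was 16 to 20 without any other mouse. Without PS/E2H replicate 2, the mouse with Y-linked counts, 16 of the 22 remained, Mrpl53, Lgals4, Gm15510, Gm47283, Gm44954 and Gm45844 were lost at adjusted p = 0.0529 to 0.163 (same edgeR test), and C330011M18Rik and Tmem254a, both lower, were gained.

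CCL21 guides T cells and dendritic cells that bear its receptor CCR7 into lymph nodes, and the mouse genome holds several near-identical copies of its gene. Ccl21b (ENSMUSG00000095675, chromosome 4, 42255767 to 42256432, GRCm38) was at 0.115, 0.154, 0.0649 and 0.118 CPM in PS/E2H mice and at 2.95, 1.42, 5.58 and 5.94 CPM in PS/E3H mice. All 4 PS/E2H mice lay below all 4 PS/E3H mice, with 4 to 9 counts per PS/E2H library, so that the gene passed the low-count filter through the PS/E3H mice. The copies Gm21541 (Ccl21d in RefSeq), Gm13304 and Gm10591 showed the same separation, with log2 fold changes of -4.62 to -5.37 against -5.12 for Ccl21b (adjusted p = 0.000391 to 0.00147 by edgeR). These copies had 4 to 13 counts per PS/E2H library and also passed the filter through the PS/E3H mice. Their 402-base coding sequences are identical in the GENCODE M21 transcripts, and every 50-base window of the Ccl21b transcript also occurs in another copy. Ccl21a differs from Ccl21b at 2 coding bases, A84T and T194C, with the Ccl21b base first and positions counted from 1 at the A of the start codon. Bases 70 to 208 of both are shown because a read must cross a differing base, in capitals, to be told apart there.
Ccl21b: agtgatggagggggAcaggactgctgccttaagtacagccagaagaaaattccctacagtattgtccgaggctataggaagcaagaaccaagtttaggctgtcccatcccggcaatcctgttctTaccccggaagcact
Ccl21a: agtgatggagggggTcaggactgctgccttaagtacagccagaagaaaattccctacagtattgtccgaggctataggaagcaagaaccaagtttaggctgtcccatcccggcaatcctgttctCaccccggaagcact

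Since the authors' counting could divide such reads between copies in any way, the counts of all 5 were also summed, a choice made after seeing the data. The sum was 0.576, 0.752, 0.406 and 0.421 CPM in PS/E2H mice and 12, 6.5, 19.1 and 22.2 CPM in PS/E3H mice. The PS/E2H mice were thus lower by 4.79 ± 0.40 on the log2 scale (standard error, n = 4 each, adjusted p = 0.000538 by edgeR). Counted alone, Ccl21a had 3, 14, 0 and 2 counts in PS/E2H and 41, 3, 29 and 45 counts in PS/E3H mice, the groups overlapped and it was not called (log2 fold change -2.45, adjusted p = 0.412). A list of the CCL21 axis named 7 genes, of which Ccl21d was not found under that name in the annotation. Of the 6 genes tested from it, Ccl21b was the only call. The called copies Gm21541, Gm13304 and Gm10591 were not counted in this list. The receptor Ccr7 was at or below 0.57 CPM in all 8 mice with overlapping groups. Among 31 chemokine and chemokine receptor genes outside CCL21, none was called by edgeR or DESeq2, 18 had lower means in PS/E2H, and the median log2 fold change was -0.13 (0.0669 without PS/E3H replicate 4) against -0.00166 over all genes tested. Ccl5, which attracts T cells and monocytes, was the only one with separate groups, which is 3.23% of the list against 5.37% of all genes. It was at 0.691, 0.769, 0.861 and 1.92 CPM in PS/E2H and 0.225, 0.271, 0.478 and 0.599 CPM in PS/E3H mice (log2 fold change 1.42, adjusted p = 0.403 by edgeR).

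The low genes on chromosome 4 formed a block. Within 1 Mb of the start of Ccl21b, 63 genes were tested, 8 were called (all lower) and 21 were lower in every PS/E2H mouse than in any PS/E3H mouse. Only 2 genes there were higher in every PS/E2H mouse. The called genes other than CCL21 copies were the pseudogenes or noncoding transcripts Gm17081, Gm5859, Gm13301 and Gm17167, with log2 fold changes of -2.98 to -4.00. Their transcripts share 62.2% to 91.1% of their 50-base windows with other genes. Among the 55 genes of the block that were not called, 33 had lower means in PS/E2H, 27.3% had separate groups and the median log2 fold change was -0.17, against 5.6% with separate groups and a median of 0.02 over the other 1160 genes of the chromosome. Of the 55, 13 were lower in every PS/E2H mouse, all of them Gm or Fam205a genes at -0.447 to 0.592 Mb from Ccl21b. Gm13302 is among these and holds 69.5% of the 50-base windows of Gm17081. Apart from Ccl21a, transcripts of genes not called were not searched for shared windows, so their levels may not be independent of the calls. Gm3883, a pseudogene of the block, was called by DESeq2 only, at 2.51 to 4.04 CPM in PS/E2H and 5.43 to 7.54 CPM in PS/E3H mice.

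**Figure D2:**
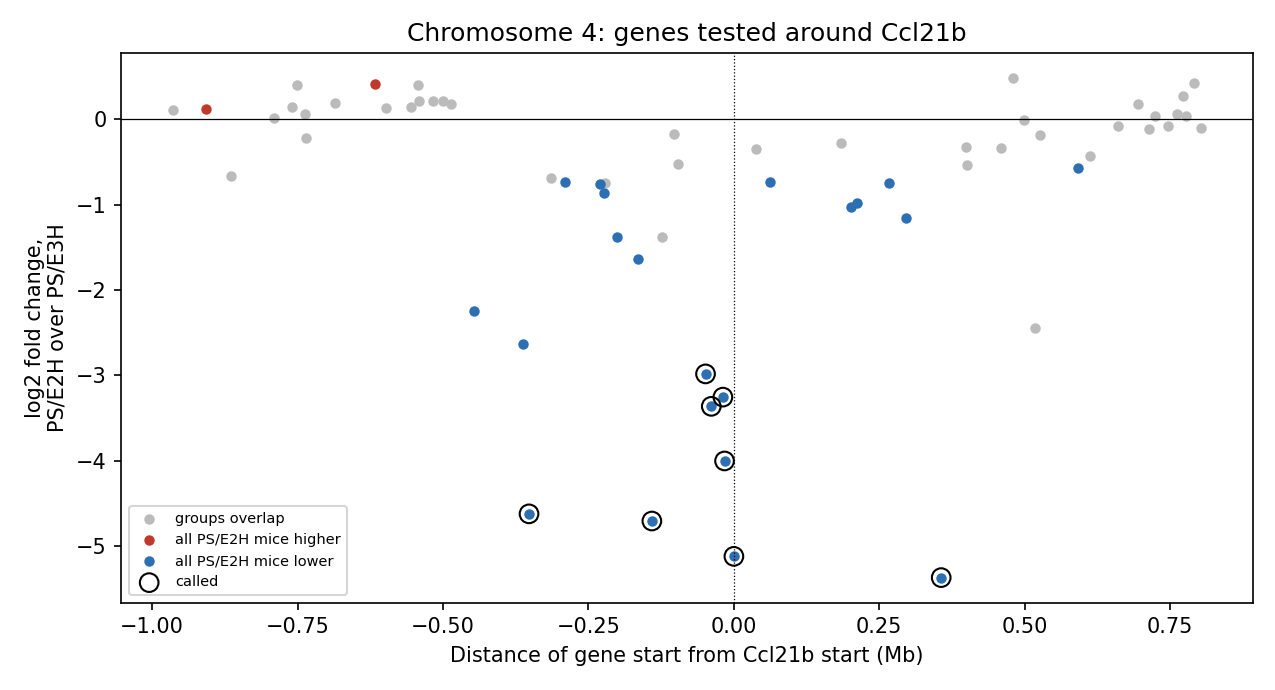
Log2 fold change (PS/E2H over PS/E3H) of the 63 genes tested within 1 Mb of the start of Ccl21b, against distance in Mb. Circles mark the 8 called genes, blue points the 21 genes lower in every PS/E2H mouse and red points the 2 genes higher in every PS/E2H mouse.

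On chromosome 14, Gm16867 (69363504 to 69503362) was at 0.187, 0.564, 0.763 and 0.489 CPM in PS/E2H mice and 21.1, 9.98, 10.9 and 16.5 CPM in PS/E3H mice (log2 fold change -4.88 ± 0.38, edgeR adjusted p = 0.000391). Gm27177 (69582164 to 69683286) was lower by 4.34 on the log2 scale, and all of its 50-base windows occur in Gm16867, so these calls are not independent. With the counts of both summed, after seeing the data, the groups were at 1 ± 0.328 and 24.7 ± 9.94 CPM (SD, n = 4 each). The genes lie opposite Entpd4 and Entpd4b, which encode nucleotide-cleaving enzymes of the Golgi, and whether the deposited counts used the strand of the reads is not given in the sources used here. Entpd4 had a log2 fold change of -0.80 (adjusted p = 0.186, edgeR) and Entpd4b of -0.51.

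Chromosome 7 held 7 calls, all within 20 Mb of the start of Apoe (19696109 to 19699188), where the human allele was inserted. Of 519 genes tested in that window, 14.3% had separate groups, 49 with PS/E2H higher and 25 with PS/E2H lower, and 20% had an unadjusted p under 0.05. Over the other 1064 genes of the chromosome these shares were 4.7% and 9.68%, with 0 calls. Separation was not strongest next to Apoe. It reached 21.3% of genes from 20 to 10 Mb before Apoe, 16.4% over the next 10 Mb, and 10.4% and 11.2% over the first and second 10 Mb after it. Of the 121 tested genes within 5 Mb of Apoe, edgeR called 1, Gm45104, where it called 0.108% of all genes. DESeq2 called 6, Gm45104 among them, where it called 0.305% of all genes. The groups were separate with PS/E2H higher for 9.09% of the 121 and lower for 5.79%, against 2.6% and 2.78% of all genes. Higher means were found for 79 of the 121, and the median log2 fold change was 0.11.

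**Figure D3:**
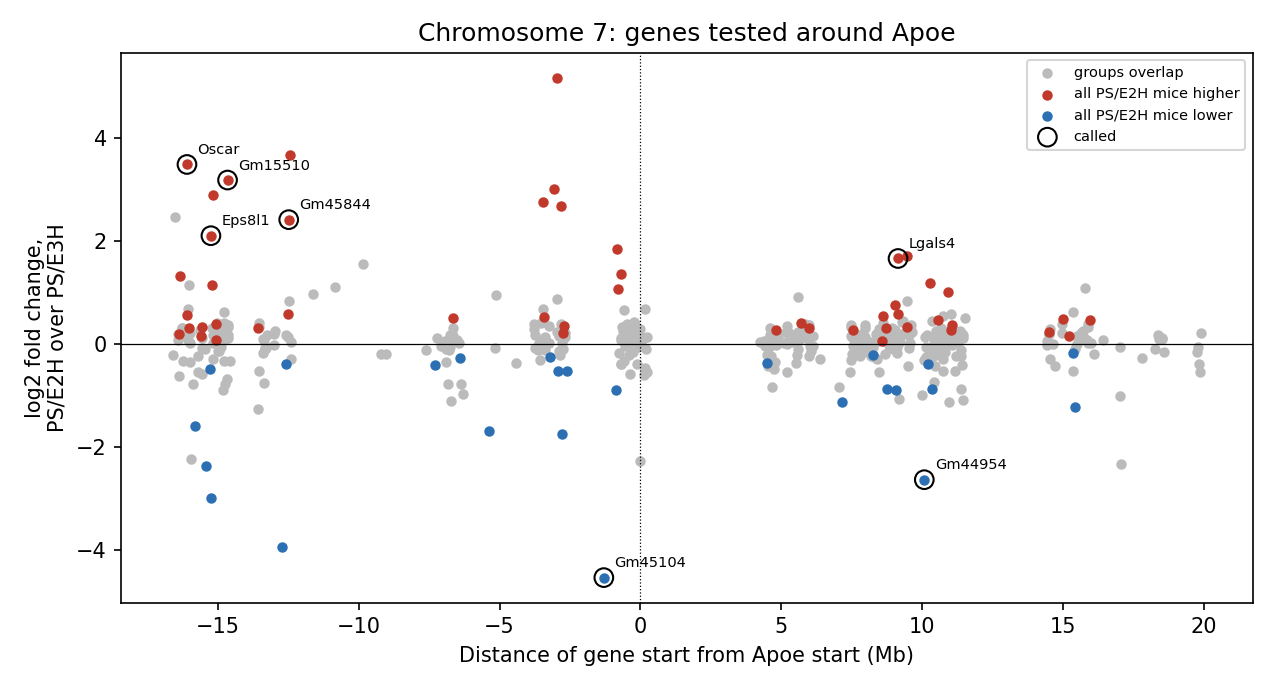
Log2 fold change (PS/E2H over PS/E3H) of the 519 genes tested within 20 Mb of the start of Apoe, against distance in Mb. The 7 called genes, circled and named, include 4 between 20 and 10 Mb before Apoe, and genes with separate groups (red and blue) are spread over the window.

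Eps8l1 and Oscar were the only genes called higher in every fit that left out 1 mouse. Eps8l1 (chromosome 7, 4460674 to 4480487), an adaptor that links receptor signals to actin, was at 5.53, 3.66, 4.63 and 6.51 CPM in PS/E2H and 1.24, 1.07, 0.892 and 1.5 CPM in PS/E3H mice. The lowest PS/E2H mouse lay above the highest PS/E3H mouse (log2 fold change 2.11 ± 0.24, edgeR adjusted p = 0.00409). Of the 8 genes tested from the EPS8 family and its partners, no other was called, and Eps8l2, the next by p, differed by 0.31 with overlapping groups.

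Oscar (3609813 to 3616157), an immunoglobulin-like receptor of osteoclasts and myeloid cells, was at 1.18, 1.08, 1.25 and 1.75 CPM in PS/E2H and 0.14, 0.0637, 0.0956 and 0.157 CPM in PS/E3H mice. Its log2 fold change was 3.49 (standard error 0.39, adjusted p = 0.00391, edgeR). The PS/E3H levels are near the floor, so Oscar passed the low-count filter through the PS/E2H mice. The size of its fold change rests on few PS/E3H reads. The neighbouring gene Ndufa3, a subunit of respiratory complex I, was also separate between groups, at 37.1, 43.0, 28.6 and 35.4 CPM in PS/E2H against 24.2, 25.3, 20.6 and 26.5 CPM in PS/E3H mice, but was not called (log2 fold change 0.57, adjusted p = 0.283). No 50-base window of Eps8l1 or Oscar occurs in another annotated gene.

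Gm45104 (18396516 to 18400865, 1.3 Mb before Apoe), a transcript awaiting experimental support in the annotation, had the smallest p of all genes. It was at 0.691, 0.222, 0.373 and 0.455 CPM in PS/E2H and 9.29, 11.6, 11.9 and 7.83 CPM in PS/E3H mice (log2 fold change -4.53 ± 0.30, edgeR adjusted p = 0.000239). Gm15510 (log2 fold change 3.19), an antisense transcript, and Gm45844 (2.42), which shares 31.5% of its windows with the vomeronasal receptor Vmn2r29, were higher in PS/E2H mice, and the pseudogene Gm44954 (-2.63) was lower. All 3 lost the call when single mice were left out, Gm44954 without any one of the 8 (adjusted p = 0.0571 to 0.223, edgeR), Gm45844 in each fit but that without PS/E3H replicate 3 (highest adjusted p = 0.138), and Gm15510 in 6 of the 8 (highest adjusted p = 0.0736).

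Lgals4 (28833854 to 28841708), a galectin best known from gut epithelium that also acts in axons and myelin, was at 2.03, 2.19, 2.14 and 3.25 CPM in PS/E2H and 0.604, 0.860, 0.669 and 0.884 CPM in PS/E3H mice. The groups were separate (log2 fold change 1.66 ± 0.25, edgeR adjusted p = 0.0407), but the call was lost without any one of the 8 mice, at adjusted p = 0.0571 to 0.169. Zfp14, a zinc finger protein gene of chromosome 7, passed the adjusted p but not the fold limit. Zfp14 was at 10.8, 10.2, 10.1 and 10.6 CPM in PS/E2H and 16.6, 19.5, 22.5 and 17.6 CPM in PS/E3H mice (log2 fold change -0.88 ± 0.11, edgeR adjusted p = 0.0117).

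A further 10 genes of the window were called by DESeq2 only, 8 higher and 2 lower in PS/E2H mice. Zfp264, a zinc finger protein gene, had the smallest DESeq2 p of these and was at 0.173, 0.0683, 0 and 0.0674 CPM in PS/E2H and 1.15, 1.24, 1.64 and 0.855 CPM in PS/E3H mice (log2 fold change -3.93, adjusted p = 0.0605 with edgeR). It was also lower in E2H than in E3H mice, where edgeR called it (log2 fold change -4.31, adjusted p = 0.00193). Ccdc61, a centrosomal protein gene, was higher with separate groups (log2 fold change 1.08, adjusted p = 0.067 with edgeR). Pglyrp1, which binds bacterial peptidoglycan, was at 5.11, 5.72, 4.64 and 11.7 CPM in PS/E2H and 1.29, 1.85, 2.26 and 2.14 CPM in PS/E3H mice (log2 fold change 1.84, adjusted p = 0.067 with edgeR). C5ar2, a receptor for the complement fragment C5a, was at 0.590, 0.786, 1.17 and 0.843 CPM in PS/E2H and 0.197, 0.127, 0.112 and 0.0570 CPM in PS/E3H mice (log2 fold change 2.76, adjusted p = 0.067 with edgeR). Both were separate between the groups, and neither passed the edgeR threshold.

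Nnt, the mitochondrial transhydrogenase that regenerates NADPH and is partly deleted in the C57BL/6J strain, was called on chromosome 13. The called identifier (ENSMUSG00000025453, 119335448 to 119408997) was at 35.6, 30.9, 36.4 and 35.5 CPM in PS/E2H and 10.4, 8.03, 18.0 and 12.4 CPM in PS/E3H mice (log2 fold change 1.5 ± 0.20, edgeR adjusted p = 0.0166). A second identifier with the same name and strand (ENSMUSG00000116207) overlaps it and had 0 counts in all 4 PS/E2H mice but 1138, 717, 0 and 639 counts in PS/E3H mice. With both summed, after seeing the data, the groups stayed separate, at 34.6 ± 2.51 against 21.3 ± 3.65 CPM (SD, n = 4 each), but the log2 fold change was 0.69 (standard error 0.12) and the call was lost (adjusted p = 0.0839, edgeR). The call of the first identifier was also lost when PS/E2H replicate 1, 3 or 4 or PS/E3H replicate 1 or 4 was left out (highest adjusted p = 0.0805). No other gene was called among 17 of mitochondrial NADPH supply and peroxide removal, of which 10 had higher means in PS/E2H (median log2 fold change 0.08).

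Gm21887 on chromosome X and Gm47283 on chromosome Y share part of their sequence, and RefSeq names the former Erdr1, a secreted factor linked to cell survival under stress. Gm21887 was at 19.1, 13.6, 13.5 and 20.8 CPM in PS/E2H and 7.47, 5.59, 4.97 and 6.6 CPM in PS/E3H mice (log2 fold change 1.44 ± 0.18, edgeR adjusted p = 0.00889). The call was lost without PS/E2H replicate 1 or PS/E3H replicate 2 (highest adjusted p = 0.0592), and that of Gm47283 (log2 fold change 1.39) was lost in 6 of 8 such fits (highest adjusted p = 0.141). Counts assigned to Gm47283 were 960 to 1817 in PS/E2H mice, including the 3 with few Ddx3y counts. Summed after seeing the data, these genes were at 45.3, 37.0, 29.1 and 46.6 CPM in PS/E2H and 15.1, 17.5, 11.4 and 15.3 CPM in PS/E3H mice (log2 fold change 1.41, adjusted p = 0.0058, edgeR). Mid1, a ubiquitin ligase gene of chromosome X, was at 10.4, 5.86, 8.28 and 11.5 CPM in PS/E2H and 5.09, 2.55, 2.39 and 3.04 CPM in PS/E3H mice and was called by DESeq2 only (edgeR adjusted p = 0.136).

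Mrpl53, a protein of the mitochondrial ribosome (chromosome 6, 83109040 to 83109939), was at 8.07, 7.21, 9.45 and 7.08 CPM in PS/E2H and 4.73, 3.23, 3.42 and 2.95 CPM in PS/E3H mice (log2 fold change 1.14 ± 0.18, edgeR adjusted p = 0.0459). Gm42688 overlaps it on the same strand and holds 82% of its 50-base windows. Summed after seeing the data, the pair was at 19.7 ± 1.77 in PS/E2H and 18.2 ± 1.03 CPM in PS/E3H mice (SD, n = 4 each), with a log2 fold change of 0.11 and no call (adjusted p = 0.617, edgeR). The call of Mrpl53 alone was lost in each fit without 1 mouse, except without PS/E3H replicate 1 (highest adjusted p = 0.195).

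The parental mice, none of which is in the PS19 comparison, gave the called genes in animals without tau or paralysis. Their comparison called 30 of 20797 genes (0.144%), and these included 16 of the 22, 4 higher and 12 lower, all in the same direction. All 22 genes had the same sign in both comparisons, and 19 had separate parental groups, where 23.3% of all genes did. The 22 include genes that share sequence, such as the CCL21 copies, Gm16867 with Gm27177, and Gm21887 with Gm47283. These counts therefore do not stand for 22 independent observations. Oscar, Lgals4 and Gm44954 had parental log2 fold changes of 4.09, 1.2 and -3.45 with separate groups but missed the threshold there (adjusted p = 0.0956 to 0.242, edgeR). The genes with overlapping parental groups were Gm21887 (0.26), Gm47283 (0.32) and Mrpl53 (0.33). The difference between the comparisons was then tested as an interaction of tau with APOE genotype. For Gm21887 it was 1.19 on the log2 scale (adjusted p = 0.843, edgeR), so a tau-dependent difference was not shown.

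**Figure D4:**
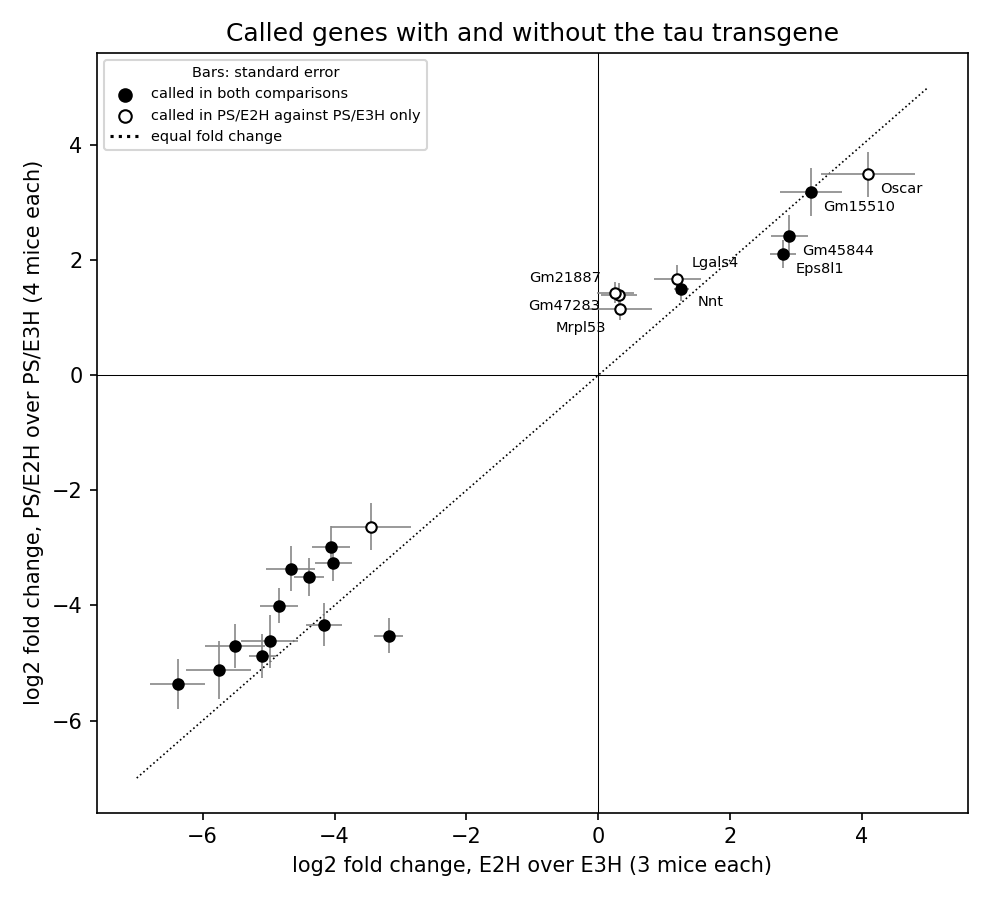
Log2 fold change of the 22 called genes in PS19 mice (vertical) against parental mice (horizontal), with standard errors, filled where the gene was called in both. All 22 points lie in the quadrants of equal sign, and Gm21887, Gm47283 and Mrpl53 have parental values near 0.

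In PS/E4H mice, the called genes were not all on one side. Eps8l1, Oscar and Gm15510 overlapped PS/E2H and not PS/E3H mice, with PS/E4H means of 4.68, 1.22 and 1.6 CPM. All 13 genes that were lower in PS/E2H overlapped PS/E3H and not PS/E2H mice, such as Ccl21b at 5.54 and Gm45104 at 8.21 CPM. Nnt, Lgals4 and Gm45844 were likewise on the PS/E3H side, Mrpl53 overlapped both groups, and Gm21887 (1.75 CPM) and Gm47283 (2.46 CPM) were below both.

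Over all genes, the interaction of tau with APOE2 against APOE3 gave 0 calls of 22133 genes with edgeR at an adjusted p under 0.05, 1265 genes (5.72%) at an unadjusted p under 0.05, and 10 genes (0.0452%) with DESeq2. Of the 10, Isg15, Ifi44 and Oasl2 were interferon response genes, each higher in PS/E2H than PS/E3H and lower in E2H than E3H mice. Gm21985 and Gm48840 were also among the 10, but their size depended on the method. Their log2 interactions were 23.4 and 21.7 with DESeq2 but 9.5 and 7.41 with edgeR (edgeR adjusted p = 0.847 for each). Capn11, a calpain protease gene, had the smallest DESeq2 p. It was at 0.417, 0.188, 0.292 and 0.185 CPM in PS/E2H and 0.239, 3.36, 1.31 and 4.75 CPM in PS/E3H mice. These groups overlapped because of PS/E3H replicate 1 (log2 fold change -3.14), whereas the parental log2 fold change was 3.50, and the interaction was -6.63 (adjusted p = 0.0907 with edgeR, 7.08e-09 with DESeq2).

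Type I interferons induce antiviral genes in neurons and glia through transcription factors that bind a repeated GAAA element in their promoters. Of 26 genes of this response, 25 had a higher mean in PS/E2H mice, with a median log2 fold change of 0.53 against -0.00166 over all genes, where 10111 of 20324 were higher. None was called by edgeR, Isg15 and Irf7 were called by DESeq2, and 4 (15.4%) were higher in every PS/E2H mouse, against 2.6% of all genes. The summed level was 390.9, 310.3, 346.7 and 339.2 CPM in PS/E2H and 185.7, 236.2, 261.5 and 311.5 CPM in PS/E3H mice. The groups overlapped, since the highest PS/E3H mouse lay just above the lowest PS/E2H mouse. PS/E4H mice spanned both groups, at 347.9, 293.7, 210.4 and 417.7 CPM, and the parental mice had 162.1, 180.1 and 181.6 (E2H) and 205.3, 196.7 and 175.9 CPM (E3H).

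Isg15 (chromosome 4, 156199424 to 156200818), a ubiquitin-like protein that is attached to other proteins during antiviral responses, was at 7.92, 8.01, 5.78 and 6.96 CPM in PS/E2H and 2.18, 2.66, 2.68 and 4.96 CPM in PS/E3H mice. The groups were separate and the log2 fold change was 1.2 ± 0.25, but the adjusted p was 0.222 with edgeR and 0.00081 with DESeq2. Oasl2, an antiviral protein related to the oligoadenylate synthetases, was at 26.2, 16.6, 17.9 and 28.8 CPM in PS/E2H and 6.76, 11.3, 12.9 and 14.5 CPM in PS/E3H mice (log2 fold change 0.97, adjusted p = 0.354, edgeR). Ifi27 was at 59.9, 57.6, 48.2 and 50.9 CPM against 33.9, 37.2, 40.2 and 43.5 CPM (log2 fold change 0.48, adjusted p = 0.232, edgeR). In the parental mice the list leaned the other way, with a median log2 fold change of -0.33 (-0.184 without E2H replicate 2), and 22 of the 26 genes were higher in PS/E2H and lower in E2H. These genes respond together, so the count does not stand for 22 independent observations.

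The Isg15 promoter from RefSeq (GRCm38.p6, chr4:156200769-156201068, minus strand, from 250 bases before to 50 after the start) shows the element of the list, with the overlapping matches at bases -78 to -57 in capitals.
Isg15: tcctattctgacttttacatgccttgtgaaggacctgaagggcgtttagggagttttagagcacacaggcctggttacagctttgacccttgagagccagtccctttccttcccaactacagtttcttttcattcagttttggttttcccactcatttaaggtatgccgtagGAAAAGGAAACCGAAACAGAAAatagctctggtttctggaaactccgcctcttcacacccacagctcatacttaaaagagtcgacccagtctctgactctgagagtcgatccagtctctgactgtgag
The letters GAAANNGAAA, searched on both strands, occur in such windows of 12 of the 18 list genes that have a promoter in the table (66.7%), and of 515 of the 13485 tested genes that have one (3.82%). The list holds known interferon targets, so this share describes the list and not the mice.

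**Figure D5:**
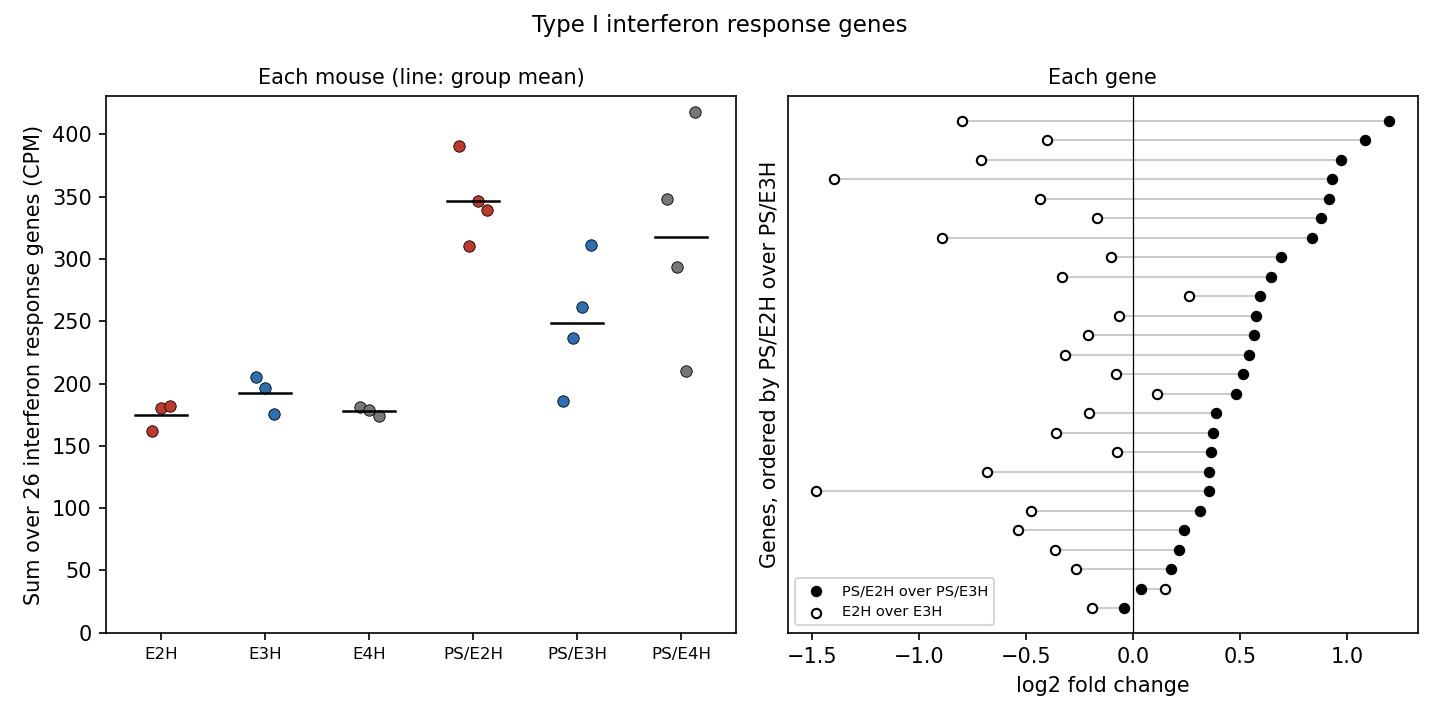
Left, summed CPM of 26 type I interferon response genes in each mouse of the 6 groups, with lines at group means. Right, log2 fold change of each gene (1 line per gene, in order of the value with tau) between APOE2 and APOE3 mice with tau (filled) and without tau (open), where 22 genes lie right of 0 when filled and left of 0 when open.

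Most genes of activated glia and of homeostatic microglia had lower means in PS/E2H mice, without any call by edgeR or DESeq2. Of 21 disease-associated microglia genes 19 had lower means (median log2 fold change -0.27), as did 13 of 15 pan-reactive astrocyte genes (-0.31), 8 of 9 MHC class II genes (-0.37), 11 of 16 homeostatic microglia genes (-0.19), 12 of 18 complement genes (-0.14) and 32 of 47 Alzheimer plaque-induced genes (-0.11). In none of these lists was a gene separate between the groups, where 5.37% of all genes tested were. The medians of the pan-reactive astrocyte and complement lists turned positive without PS/E3H replicate 4 (0.00902 and 0.0208), that of the disease-associated microglia list was -0.124 to -0.392 with any 1 mouse left out, and that of MHC class II was -0.172 to -0.573. Lgals3, a galectin of phagocytic microglia, was at 4.17, 3.59, 6.82 and 4.25 CPM in PS/E2H and 3.41, 10.2, 10.1 and 19.4 CPM in PS/E3H mice (log2 fold change -1.2, adjusted p = 0.403, edgeR). Complement C3 ranged from 6.8 to 107 CPM among PS/E2H and from 4.73 to 223 CPM among PS/E3H mice, so spread within the groups was larger than the difference between them. PS/E3H replicate 1 was the lowest and replicate 4 the highest of its group for C3, Lgals3, Lyz2, Cd44 and Timp1. Parental medians of the microglial, MHC class II and plaque lists were 0.05 to 0.20, but without E2H replicate 2 they were -0.0715 to 0.0334. The pan-reactive astrocyte list was lower in E2H as well, with a parental median of -0.108 (-0.26 to -0.0902 with 1 mouse left out). That of complement was -0.0654 (-0.11 to 0.0423). Fewer cells of a type cannot be told apart from less RNA per cell in forebrain tissue. Of 18 MHC class I genes 15 had higher means (median 0.14), and of 11 T cell genes 9 had lower means (median -0.20, or 0.045 without PS/E3H replicate 4). The only T cell list gene with separate groups, Ccl5, was higher in PS/E2H mice, which is 9.09% of the list against 2.6% of all genes.

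Genes of respiration and translation differed by small, even steps. Of 73 nuclear genes of oxidative phosphorylation 72 had higher means in PS/E2H (median log2 fold change 0.22), and of 82 cytosolic ribosomal protein genes 79 did (0.21), with 0 calls by edgeR or DESeq2 in either. The number higher in every PS/E2H mouse was 5 (6.85%) in the former and 0 in the latter, against 2.6% of all genes. Summed levels overlapped between the groups, at 9286 to 12030 CPM in PS/E2H and 8863 to 10030 CPM in PS/E3H mice for oxidative phosphorylation. For ribosomal proteins they were 12360 to 16160 and 11710 to 13750 CPM. In both lists PS/E2H replicate 2 was the highest and replicate 3 the lowest of the group. Genes of a list can move together within a library, so the counts of 72 and 79 do not stand for independent observations. Without PS/E2H replicate 2 the medians were 0.154 and 0.14, and without any other single mouse 0.173 to 0.293. The parental medians were 0.45 and 0.47, and 0.28 for both lists without E2H replicate 2. Of 36 genes of the mitochondrial genome 24 had lower means (median -0.09, parental median 0.42, or 0.296 without E2H replicate 2). They comprise 13 protein-coding genes, of which 9 had lower means (median -0.0863), 21 tRNA genes, of which 15 did, and 2 rRNA genes, of which none did. Uqcr10, a complex III subunit, was at 70.3, 77.6, 59.7 and 69.2 CPM in PS/E2H and 60.3, 54.3, 46.2 and 58.3 CPM in PS/E3H mice, which overlap (log2 fold change 0.33, adjusted p = 0.403, edgeR).

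Neuronal, myelin and lipid genes had no calls, and the medians of their lists lay between -0.14 and 0.07. Of 28 neuron and synapse genes 17 had higher means (median log2 fold change 0.04), and the neurofilament genes Nefh (143 to 177 CPM against 114 to 134 CPM) and Nefm (279 to 298 CPM against 202 to 267 CPM) were higher in every PS/E2H mouse without a call (adjusted p = 0.366 and 0.377, edgeR), which is 7.14% of the list against 2.6% of all genes. Gabrb2, a GABA-A receptor subunit, had a lower mean, at 39.7, 21.8, 68.1 and 39 CPM in PS/E2H and 65, 69.4, 88.4 and 72.8 CPM in PS/E3H mice, which overlap (log2 fold change -0.81, adjusted p = 0.403, edgeR). Of 18 genes of tau and its kinases 15 had higher means (median 0.07). Prnp, whose promoter drives the transgene, was at 1687 to 1927 CPM in PS/E2H and 1390 to 1728 CPM in PS/E3H mice, with overlapping groups, against means of 961 and 893 CPM in E2H and E3H mice. Of 18 myelin genes 15 had lower means (median -0.14), and of 8 oligodendrocyte precursor genes 5 did (-0.12). The myelin median was -0.179 to -0.0273 with any 1 mouse left out. Its parental counterpart was positive at 0.31 (0.272 to 0.357 with 1 mouse left out). Mobp was the only myelin gene with separate groups (5.56% of the list against 5.37% of all genes). It was higher, at 1193 to 1319 CPM in PS/E2H and 1060 to 1129 CPM in PS/E3H mice. Cholesterol synthesis (28 genes, median -0.07), APOE receptors and lipid transporters (22, -0.08) and lysosomal genes (26, -0.09) had 0 calls by edgeR or DESeq2, and the medians of the first and last turned positive without PS/E2H replicate 4 (0.0023) and PS/E3H replicate 4 (0.00307). Hsd17b7, a cholesterol synthesis enzyme, was the member with the smallest p, at 13.7 to 19.1 CPM in PS/E2H and 19.9 to 24.8 CPM in PS/E3H mice (log2 fold change -0.54, adjusted p = 0.307, edgeR).

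Stress lists were likewise without a call. Higher means were found for 13 of 16 heat shock chaperones (median log2 fold change 0.11) and 16 of 21 genes of endoplasmic reticulum stress (0.11). The glucocorticoid and fasting response (14 of 17 higher, 0.21) rested on PS/E2H replicate 4, without which its median was -0.00452, and the immediate early genes (14 of 19 lower, -0.19) on PS/E3H replicate 1, without which it was 0.132. The glucocorticoid targets Fkbp5 and Cdkn1a had 1 high mouse, PS/E2H replicate 4, at 190 and 148 CPM, where the other 3 PS/E2H mice had 57.4 to 66.5 CPM of Fkbp5 and 29.6 to 47.1 CPM of Cdkn1a. Of the remaining lists, those of endothelial and meningeal cells (20 genes, median -0.14) and choroid plexus (13, -0.14) had negative medians and that of hypothalamic peptides (21, 0.14) a positive one with any 1 mouse left out. Medians of resting astrocytes (15, -0.02), red blood cells (5, -0.18), striatum (16, 0.06), cerebellum (10, 0.05) and pituitary hormones (3, 0.08) changed sign in at least 1 such fit, and none of these lists held a call by edgeR or DESeq2.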

How the data were processed

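Forebrain RNA of 21 mice was sequenced from stranded poly(A) libraries. Per the methods and the submitters' processing notes, the authors trimmed reads with Cutadapt, aligned them to GRCm38.p5 with HISAT2 and quantified transcripts with StringTie. The authors deposited whole-number counts per gene without normalization, and FPKM values, scaled for transcript length and library size. The step from StringTie to whole-number counts, and its strand setting, are not given in the sources used here. Groups came from the labels, and 0 columns were left unmapped. Counts were fitted with edgeR 4.0.16 (TMM, filterByExpr with a minimum count of 10 and minimum total of 15, quasi-likelihood F test, Benjamini-Hochberg adjustment) in R 4.3.3, on the mice compared only and without covariates, since the labels give no sex. The interaction was fitted on the 14 mice of 4 groups, with no fold limit. The standard error is the absolute log2 fold change over the square root of F. DESeq2 1.42.0, limma 3.58.1 on log2(FPKM + 0.1) and log2(FPKM + 1), other filters and scaling, a replicate block and leaving out each mouse were alternatives. Scripts were tested on simulated data. GENCODE M21 named 55141 of 55401 identifiers. Shared windows were exact 50-base matches between annotated transcripts. Coding sequences were taken as the longest open frame of the transcript.

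A set of named genes was fixed by rule. It held every called gene, genes past the adjusted p below the fold limit and the 10 smallest DESeq2-only p-values. It also held the 3 members of smallest p in each of 36 gene lists, and Apoe, Mapt, Prnp, Xist and Ddx3y. The text describes only part of this set, picked with the values known. Tnnt1 and ENSMUSG00000118425, called by DESeq2 only, and many list members are not described. C330011M18Rik, Tmem254a, Irf7, Ifi44, Entpd4, Entpd4b, Gm21985, Gm48840 and the Fam205a genes were named after their values were seen. The genes and lists were chosen with earlier results of these data known, so lists are described by counts and medians without a test. Counts limit genes of a few reads: Ccl21b had 4 to 9 counts per PS/E2H library. Like it, the other called CCL21 copies, Gm13301, Gm44954 and Zfp264 passed the low-count filter through the PS/E3H mice. Oscar, Gm15510 and C5ar2 passed it through the PS/E2H mice. Figures were drawn with matplotlib 3.10.9.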

Additional observations from a re-analysis of the deposited data

Results flagged for a closer look

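Among 272 pairs of a named gene and a PS19 group of 4 mice (PS/E2H or PS/E3H), 17 (6.25%) had 1 mouse whose gap to its nearest neighbour took most of the range of the group by Dixon's criterion, which chance gives for about 1 in 20 pairs.

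PS/E2H replicate 4 was the high mouse in 7 of them. Its levels were 190 CPM for Fkbp5 (next mouse 66.5), 148 for Cdkn1a (47.2), 56.6 for Sult1a1 (21.1), 57.9 for Ddc (31.4), 11.7 for Pglyrp1 (5.72), 3.25 for Lgals4 (2.19) and 1.92 for Ccl5 (0.861). PS/E2H replicate 3 was high for 3 genes of reactive glia, with 107 CPM of C3 (next mouse 11.3), 17.7 of Cd44 (7.46) and 125 of Lyz2 (46.8). PS/E2H replicate 2, the mouse with Y-linked counts, was low for Nnt at 30.9 CPM (next mouse 35.4) and high for Pmvk at 42.5 CPM (33.8).

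PS/E3H replicate 4 was high for 3 red blood cell genes, with 88.0 CPM of Hba-a1, 65.8 of Hba-a2 and 6.34 of Alas2, and for Psap at 2070 CPM. PS/E3H replicate 1 was low for Cdkn1a at 21.1 CPM (next mouse 38.0). Of the genes called by edgeR, only Nnt and Lgals4 were among these, and in both every PS/E2H mouse stayed above every PS/E3H mouse.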

How the results depend on the processing

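The count of 22 genes called by edgeR in the PS19 comparison was 62 with DESeq2, 14 with limma on log2(FPKM + 1) and 38 with all 6 groups in the fit, of which 22, 12 and 18 were among the 22. It was 15 to 25 under the other settings that keep all mice and 14 to 20 with 1 mouse left out. The parental count of 30 became 78 with DESeq2 and 16 with limma on log2(FPKM + 1), and was 21 to 36 with 1 mouse left out. The interaction gave 10 calls with DESeq2, 0 to 2 with 1 mouse left out (1 without E2H replicate 2 or PS/E3H replicate 4, 2 without PS/E3H replicate 1) and 0 under the other settings. The 4 calls within gene lists became 11 with DESeq2 and 8 with all 6 groups, and 3 to 5 with 1 mouse left out. The causes were not tested. None of the 22 genes changed direction under the alternatives in which it was tested.

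Same-numbered mice share only a number: their deviations correlated at -0.0822 to 0.212 in the PS19 groups, and not every mouse correlated best with its own number. With the replicate block the count was 15 in the PS19 comparison (all among the 22), 22 in the parental comparison, 0 for the interaction and 4 within gene lists.

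Of the 36 list medians, 13 changed sign when some 1 mouse was left out, and the report gives the values beside the larger lists. The interferon median of 0.53 stayed between 0.272 and 0.708 under all settings run. Parental medians without each mouse were added after seeing the data. With 4 mice a group, a p that misses the threshold does not show equal levels, and genes with a few counts per library carry large counting error.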
